A study of Mus musculus with 12 samples.

Results

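The proteasome subunit genes were taken as all protein-coding mouse genes whose symbol is Psma, Psmb, Psmc, Psmd or Psme followed by a number. The rule used names and no measured value, and it gave 43 genes of the 49671 in the count tables. Of these, 41 had enough counts to be tested among 17977 genes. Psma8 and Psmb11, which belong to the testis and to the thymic cortex, stayed at or below 0.22 CPM in every library and were not tested. CPM is a gene's read count divided by the total of its library and brought to a common scale. The libraries are mRNA sequencing of regulatory T cells (Tregs) of 8-week-old C57BL/6 mice, either wild type (WT) or Gclc mutant, where Gclc is the catalytic subunit of the first enzyme of glutathione synthesis. Those sorted directly from the animal are called nTregs, and iTregs are cells that started as naive CD4+ T cells and took on the Treg state in culture. Each of the 4 groups (WT nTregs, mutant nTregs, WT iTregs and mutant iTregs) had 3 libraries, numbered 1, 2 and 3 in WT and 1, 2 and 4 in the mutant. The promoter or Cre line behind the mutation, the deleted exons, the sort gate and the culture agents were not given in the sources used here. The labels do not say whether each library had its own animal or culture, so the spread that p-values rest on is that between these libraries and may be technical.

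The proteasome degrades proteins tagged with ubiquitin. Its barrel-shaped core is built from outer rings of alpha subunits (Psma genes) and inner rings of beta subunits (Psmb genes), and 3 beta subunits, Psmb5, Psmb6 and Psmb7, carry the proteolytic sites. In lymphocytes and in cells exposed to interferon gamma these are exchanged for Psmb8, Psmb9 and Psmb10, which gives the immunoproteasome, known for making peptides that bind MHC class I. The regulatory particle that caps the core holds an ATPase ring that unfolds substrates (Psmc genes) and further base and lid subunits (Psmd genes). Psme1 and Psme2 form PA28, an interferon-inducible cap, while Psme3 forms a nuclear cap and Psme4 encodes PA200.

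Positions are those of GRCm38. Psmb8 (chr17:34197721-34201454, plus strand) and Psmb9 (chr17:34181988-34187764, minus strand) lie close to each other in the MHC region. The RefSeq start of Psmb9 lies 225 bases from that of Tap1, a subunit of the peptide transporter, on the other strand. Psmb10 lies elsewhere, at chr8:105935735-105938444 on the minus strand. Their constitutive counterparts are Psmb5 (chr14:54614120-54617995, minus), Psmb6 (chr11:70525367-70527858, plus) and Psmb7 (chr2:38588036-38644087, minus). Psme1 (chr14:55578123-55581529) and Psme2 (chr14:55587441-55591113) are neighbours.

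Promoter sequences are shown for the catalytic subunits because these members moved in opposite directions between nTregs and iTregs. They come from RefSeq (GRCm38.p6), which gave a window for 36 of the 43 members. Each is written 5′ to 3′ on the strand of its gene. Capitals mark matches, on either strand, to an antioxidant response element (TGACNNNGC, the motif of NFE2L1 and NFE2L2) in Psmb5 and Psmb6, to a gamma-activated site (TTCNNNGAA) in Psmb8, and to a CCAAT box in Psmb9. Psmb5 is chr14:54617996-54618245 and Psmb6 is chr11:70525107-70525356, the 250 bases before each start. Psmb10 is chr8:105938445-105938642, the 198 bases of its window that lie outside annotated exons. For Psmb8 (chr17:34198088-34198116) and Psmb9 (chr17:34187331-34187348) only the bases around the match are shown, since their windows lie in annotated exons.

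Psmb5: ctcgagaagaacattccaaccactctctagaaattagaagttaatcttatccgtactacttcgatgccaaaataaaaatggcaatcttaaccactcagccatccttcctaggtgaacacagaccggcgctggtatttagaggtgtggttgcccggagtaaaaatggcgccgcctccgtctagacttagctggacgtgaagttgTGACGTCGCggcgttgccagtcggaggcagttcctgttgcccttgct
Psmb6: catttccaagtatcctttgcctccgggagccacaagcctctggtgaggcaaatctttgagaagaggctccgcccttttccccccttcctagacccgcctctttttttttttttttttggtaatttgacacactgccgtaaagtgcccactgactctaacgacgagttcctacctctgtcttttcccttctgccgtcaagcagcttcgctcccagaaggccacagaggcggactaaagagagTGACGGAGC
Psmb10: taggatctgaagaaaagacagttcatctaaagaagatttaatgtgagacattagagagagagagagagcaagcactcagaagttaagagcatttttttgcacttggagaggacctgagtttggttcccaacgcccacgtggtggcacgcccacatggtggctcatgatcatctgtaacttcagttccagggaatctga
Psmb8: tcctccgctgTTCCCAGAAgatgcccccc
Psmb9: gcagccgctgATTGGaaa

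Over the 250 bases before the start, the TGACNNNGC motif was found in 5 of the 36 members (Psmb5, Psmb6, Psmc6, Psmd9 and Psmd12; 13.9%) and in 11.5% of all 27025 genes with a window. Psmb8 was the 1 member with TTCNNNGAA (2.78%, against 8.13% of genes). The interferon response element, a pair of GAAA runs with 2 bases between them, was found in Psmb3, Psmd4 and Psmd9 (8.33%, against 3.46%), and in none of Psmb8, Psmb9, Psmb10, Psme1 and Psme2. CCAAT was found in 14 members and in 37.5% of genes. The ETS motif CCGGAAG was found in 11 members (30.6%, against 7.83%), among them Psma6, Psmc1, Psmc2, Psmc6, Psmd6 and Psmd12, and in no catalytic subunit that had a window. These are matches of letters and no evidence of binding, the motifs can overlap, and Psmb7 had no window.

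Library totals ran from 28707579 to 39886130 counts. Gclc fell with the mutant label, from 70.8 to 79.0 CPM in WT nTregs to 41.7 to 45.8 CPM in mutant nTregs, and from 51.9 to 56.5 to 18.8 to 21 CPM in iTregs, with no overlap. Foxp3, which defines Tregs, was at 559 to 610 CPM in WT nTregs, 135 to 217 CPM in mutant nTregs, 287 to 300 CPM in WT iTregs and 75.5 to 107 CPM in mutant iTregs. The 7 Treg markers, Foxp3 among them, summed to 3301 to 3626 CPM in WT nTregs and 2380 to 2992 CPM in mutant nTregs. In iTregs that Treg marker sum did not fall with Foxp3, at 2374 to 2568 CPM in WT and 2507 to 2718 CPM in the mutant. Mutant nTreg library 1 stood apart: its 10 CD8 and NK cell markers summed to 1492 CPM, against 192 and 162 CPM in mutant nTreg libraries 2 and 4 and 62.9 to 71.7 CPM in WT nTregs. In iTregs the CD8 and NK cell marker sum was 37.8 to 89.1 CPM, and Ncr1 and Gzma were at 0 in all 6 libraries. The 8 B cell markers summed to 249 to 515 CPM in nTreg libraries and to 2.48 to 3.68 CPM in iTreg libraries, and the 6 erythroid markers to 85.2 to 681 CPM and at most 0.0911 CPM. The 8 myeloid markers summed to 39.3 to 41.8 CPM in WT nTregs, 52.3 to 84.7 CPM in mutant nTregs, 9.78 to 11.2 CPM in WT iTregs and 5.98 to 7.47 CPM in mutant iTregs. In bulk RNA, fewer cells of a type and less RNA per cell cannot be told apart.

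Levels between genes are compared as CPM per kilobase of annotated exon, here called CPM per kb. The order of genes depends on this length, which can be far from that of the longest coding transcript. The exon and transcript lengths are 3421 and 1160 bases for Psmb7, 3659 and 1352 for Psmb9, 871 and 899 for Psmb5, and 944 and 2911 for Psma2. The orders below therefore hold for exon length alone and can differ with transcript length. In WT nTregs the 7 alpha subunits ran from 12.1 CPM per kb (Psma3) to 101 CPM per kb (Psma2), with a median of 27.7. The 6 ATPases had a median of 37.0 CPM per kb and ran from Psmc2 at 14.8 to Psmc6 at 53.6. The 8 lid subunits had a median of 21.5 CPM per kb, from Psmd3 at 9.65 to Psmd14 at 26.5. The 3 base chaperones Psmd5, Psmd9 and Psmd10, which help to assemble the ATPase ring, were lower, at 6.53, 1.16 and 13.3 CPM per kb. Psmb8 at 64.3 ± 3.0 CPM per kb (SD, n = 3) was the most abundant catalytic subunit in WT nTregs, followed by Psmb5 at 29.5 ± 2.62 CPM per kb. Psmb6 (22.0 ± 1.17), Psmb9 (21.8 ± 1.18), Psmb10 (17.0 ± 1.51) and Psmb7 (16.8 ± 0.841 CPM per kb) came next, and Psmb6 and Psmb9, as well as Psmb10 and Psmb7, did not differ beyond their spread. In WT iTregs the order was Psmb5 (44.5 ± 1.75), Psmb8 (41 ± 2.26), Psmb6 (31.4 ± 0.341), Psmb7 (30.5 ± 3.75), Psmb9 (10.9 ± 0.804) and Psmb10 (6.33 ± 0.590 CPM per kb), where Psmb5 and Psmb8, and Psmb6 and Psmb7, did not differ beyond their spread. All 3 immunoproteasome subunits were thus lower, and all 3 constitutive ones higher, in WT iTregs than in WT nTregs.

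**Figure D1:**
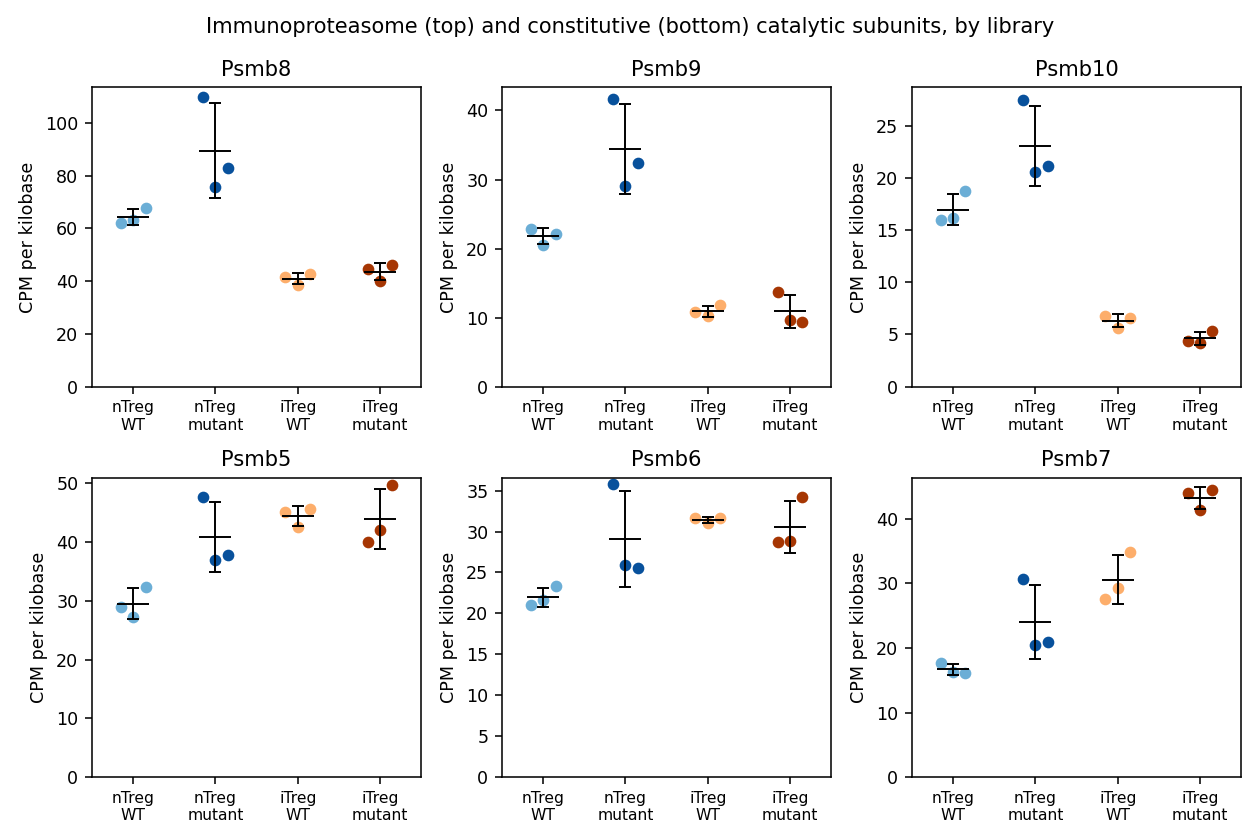
Level of each catalytic subunit (y axis, CPM per kilobase of exon, from 0) in the 3 libraries of each group (points), with the group mean and SD (bar and whiskers). Psmb8, Psmb9 and Psmb10 sat lower in every iTreg library than in every nTreg library, and mutant nTreg library 1 was the highest point of its group in all 6 panels.

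WT iTregs were compared with WT nTregs to see how the subunits differ between induced and freshly isolated Tregs. Of the 41 tested members 31 were higher in iTregs (33.7% of all tested genes were) and 5 were lower (35.7% of all genes were), with an adjusted p below 0.05 in edgeR's quasi-likelihood test with Benjamini-Hochberg adjustment over all genes. The 5 lower members were Psmb8, Psmb9, Psmb10, Psme1 and Psme2, that is, the 3 immunoproteasome subunits and both subunits of PA28. The median log2 fold change was 0.50 over the members and -0.02 over all tested genes. B cell, erythroid and myeloid markers, at the levels given above, moved with this comparison. The CD8 and NK cell marker sum was 62.9 to 71.7 CPM in WT nTregs and 37.8 to 56.8 CPM in WT iTregs. Of these 10 markers 2 passed as lower and 0 as higher. The part of all these markers in the comparison was not tested.

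Psmb10, which replaces Psmb7, was at 27.2, 27.7 and 31.9 CPM in WT nTreg libraries 1, 2 and 3 and at 11.6, 9.65 and 11.2 CPM in WT iTreg libraries 1, 2 and 3. The groups lay far apart, with a log2 fold change of -1.42 ± 0.13 (SE) and an adjusted p of 1.13e-06 by edgeR. Psmb9, which replaces Psmb6, was at 83.4, 75.0 and 81.0 CPM in WT nTregs and 39.4, 37.4 and 43.2 CPM in WT iTregs. Every iTreg library was below every nTreg library (log2 fold change -1.0 ± 0.15, edgeR adjusted p 7.34e-05). Psmb8, which replaces Psmb5, went from 169, 173 and 185 CPM to 114, 105 and 117 CPM, again without overlap (-0.65 ± 0.12, edgeR adjusted p 0.000293). Of the PA28 subunits, Psme2 went from 86.5, 89.0 and 87.5 CPM to 60.7, 58.7 and 62.4 CPM (-0.53 ± 0.11, edgeR adjusted p 0.000985). Its reads are uncertain: the retrocopy Psme2b had 145% of its counts, and reads that map to several places were counted at each. Psme1 went from 150, 144 and 149 CPM to 128, 125 and 132 CPM, and its log2 fold change of -0.20 ± 0.08 just passed (edgeR adjusted p 0.0479). Without WT iTreg library 2, Psme1 gave -0.18 with an edgeR adjusted p of 0.14, and it missed the threshold under most other alternatives that left a library out.

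The constitutive catalytic subunits went the other way. Psmb7 was at 60.7, 55.9 and 55.6 CPM in WT nTregs and at 94.4, 100 and 119 CPM in WT iTregs, a log2 fold change of 0.86 ± 0.14 (edgeR adjusted p 0.000103). Psmb5 rose from 25.2, 23.7 and 28.2 CPM to 39.4, 37.0 and 39.8 CPM (0.59 ± 0.11). Psmb6 rose from 39.3, 40.5 and 43.6 CPM to 59.1, 58.0 and 59.1 CPM (0.51 ± 0.12). For each of these, all 3 iTreg libraries were above all 3 nTreg libraries. Part of the Psmb5 exon sequence, 12.5%, is shared with the microRNA gene Mir686 on the same strand.

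The rest of the particle followed the constitutive core. In the alpha ring 6 of 7 members rose, and Psma3 did not pass (-0.09 ± 0.08). Among the non-catalytic beta subunits 3 of 4 rose, and Psmb3 did not pass (0.13 ± 0.11). All 6 ATPases and all 8 lid subunits rose, with medians of 0.54 and 0.50, and of the base subunits Psmd1 and Psmd2 rose while Psmd4 did not pass. Psmd7, a lid subunit that pairs with the deubiquitinase Psmd14, had the largest increase of the 41. It was at 48.5, 48.3 and 50.3 CPM in WT nTregs and 91.4, 90.9 and 91.1 CPM in WT iTregs (0.89 ± 0.10, edgeR adjusted p 4.91e-06). Psmd2, which receives ubiquitin-like domains at the base, went from 161, 153 and 150 CPM to 237, 235 and 257 CPM (0.65 ± 0.09). The nuclear cap gene Psme3, in contrast to Psme1 and Psme2, went from 143, 138 and 130 CPM to 253, 249 and 247 CPM (0.87 ± 0.08, edgeR adjusted p 1.08e-06). Psme4 rose too (0.46 ± 0.07). Of the base chaperones, Psmd9 rose (0.65 ± 0.11), while Psmd5 (0.06 ± 0.07) and Psmd10 (-0.03 ± 0.08) did not pass.

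**Figure D2:**
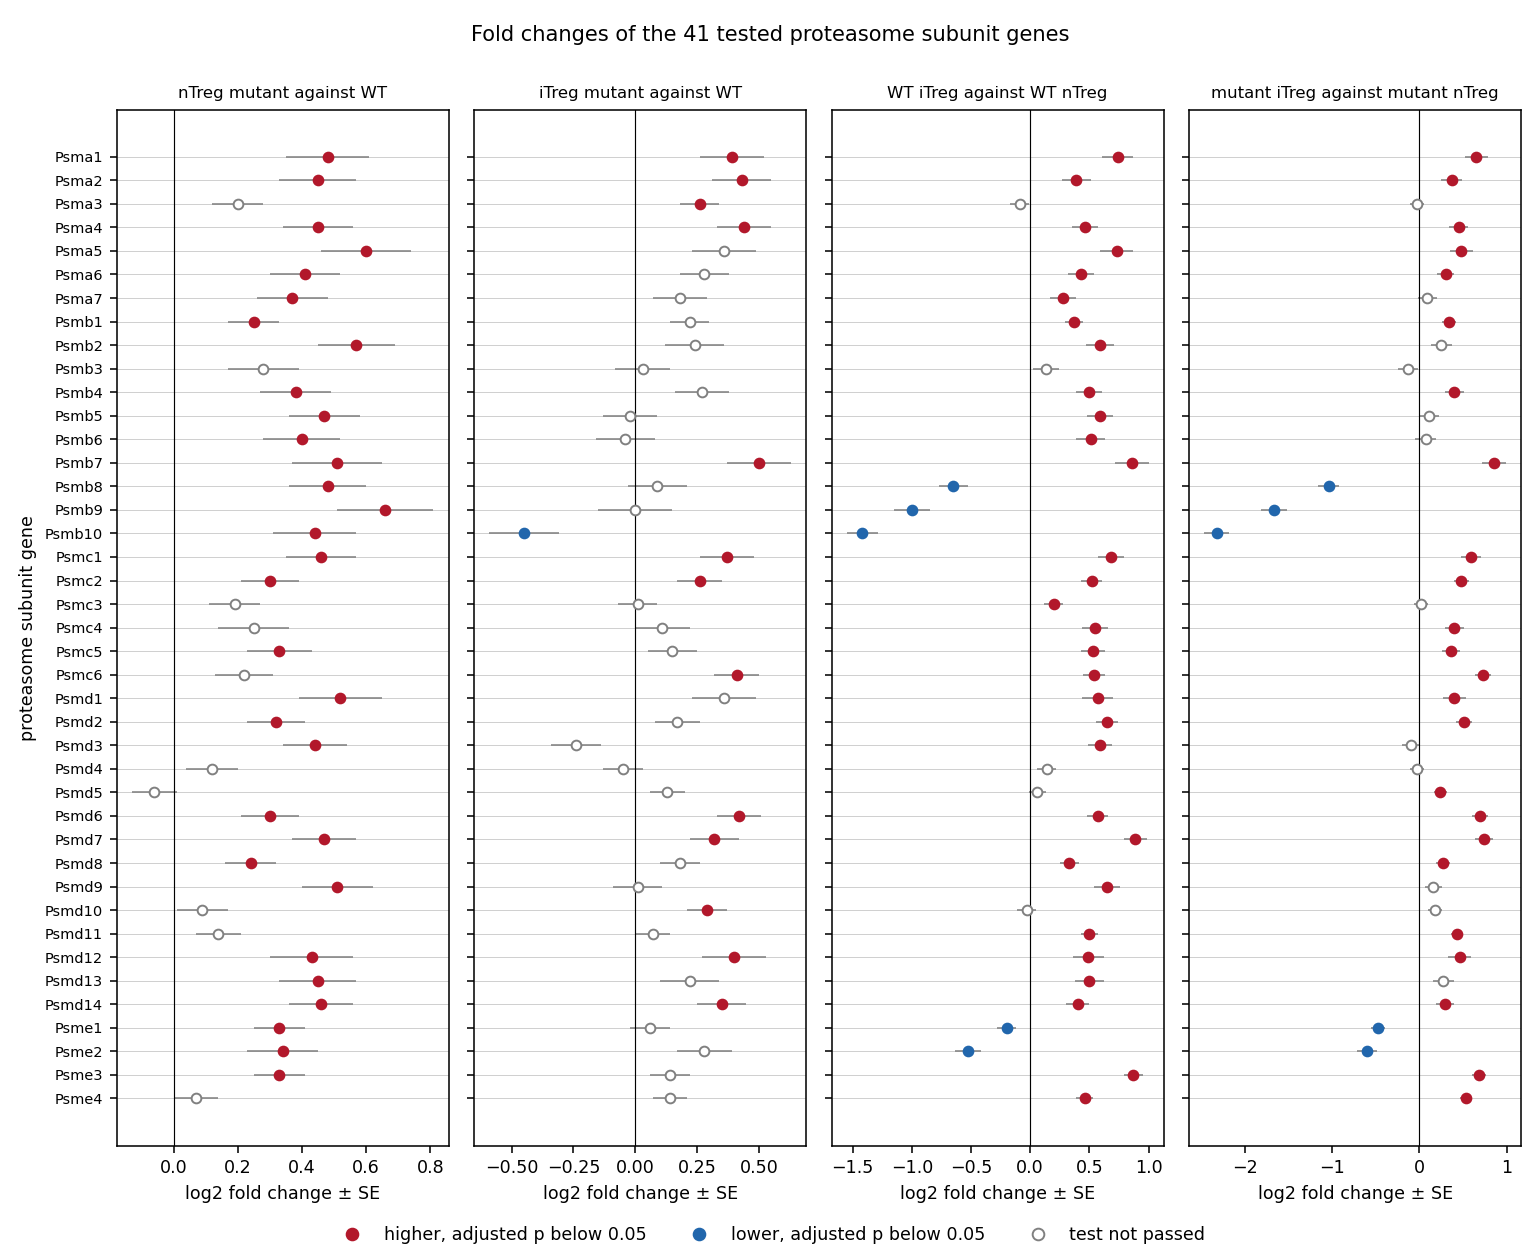
Log2 fold change with SE (x axis, scales differ between panels) of the 41 tested members (y axis) in 4 comparisons. Red points passed as higher and blue points as lower at an adjusted p below 0.05, and open points did not pass. Both iTreg against nTreg panels show blue points for Psmb8, Psmb9, Psmb10, Psme1 and Psme2, and the mutant iTreg panel shows Psmb10 as its single blue point.

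In mutant iTregs against mutant nTregs, 24 members were higher (33.2% of all tested genes were) and 5 were lower (35.0% of all genes), and the 5 were again Psmb8, Psmb9, Psmb10, Psme1 and Psme2. These libraries also enter the comparisons between genotypes, so the comparisons are not independent. The B cell, erythroid, myeloid, and CD8 and NK cell markers moved with this comparison as well, and their part in it was not tested. The median was 0.30 over the members and -0.02 over all genes. Psmb10 was at 46.8, 35.1 and 35.9 CPM in mutant nTreg libraries 1, 2 and 4 and at 7.41, 7.09 and 9.11 CPM in mutant iTreg libraries 1, 2 and 4 (log2 fold change -2.32 ± 0.14, edgeR adjusted p 2.71e-08). Psmb9 was at 153, 107 and 119 CPM against 50.2, 35.2 and 34.2 CPM (-1.66 ± 0.15). Psmb8 was at 302, 207 and 227 CPM against 122, 109 and 127 CPM (-1.04 ± 0.12). The groups did not overlap for any of the 3. Without mutant nTreg library 1 the values were -2.25, -1.58 and -0.94 for Psmb10, Psmb9 and Psmb8. Psme1, at 212, 167 and 177 CPM against 134, 125 and 143 CPM, fell by 0.47 ± 0.08 on the log2 scale (edgeR adjusted p 0.000306). Psme2, at 136, 97.8 and 100 CPM against 73.2, 66.6 and 81.0 CPM, fell by 0.60 ± 0.11 on that scale. Psmb7 rose (0.85 ± 0.14), whereas Psmb5 (0.11 ± 0.11) and Psmb6 (0.07 ± 0.12) did not pass.

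Among the members that rose with the smallest p in the mutant, Psmc6, an ATPase, was at 114, 88.5 and 90.4 CPM in nTregs and 163, 165 and 157 CPM in iTregs (0.73 ± 0.09). Psmd6, a lid subunit, was at 71.1, 56.5 and 55.1 CPM against 99.2, 101 and 94.5 CPM (0.69 ± 0.09). Psme3 was at 195, 156 and 164 CPM against 266, 287 and 271 CPM (0.68 ± 0.08). In these 3 genes every iTreg library was above every nTreg library. With library size alone in place of TMM scaling, which lowers the median of all genes by 0.19 here, 14 members were higher and 9 lower, and the members' median was 0.11. All tested genes then stood at 24.5% higher and 43.6% lower. The 5 members named as lower passed in every alternative that was run for this comparison.

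The balance of the catalytic subunits was measured within each library as the summed counts per kilobase of Psmb8, Psmb9 and Psmb10 over those of Psmb5, Psmb6 and Psmb7. It does not depend on how libraries are scaled to each other. The ratio was 1.49, 1.54 and 1.51 in WT nTregs, 1.57, 1.51 and 1.62 in mutant nTregs, 0.567, 0.529 and 0.546 in WT iTregs, and 0.557, 0.479 and 0.475 in mutant iTregs. All nTreg libraries were above 1 and all iTreg libraries below 1. The log2 ratio differed by -1.46 ± 0.03 (SE) between WT iTregs and WT nTregs and by -1.64 ± 0.08 between mutant iTregs and mutant nTregs, far outside the spread of the libraries. Between genotypes it differed by 0.05 ± 0.03 in nTregs and by -0.12 ± 0.08 in iTregs, and the groups overlapped in both. The genotype difference depended on how the ratio was formed. With a geometric mean of the 3 genes it was -0.28 ± 0.09 in iTregs, with log2 ratios of -1.42, -1.66 and -1.68 in mutant libraries and -1.23, -1.37 and -1.31 in WT libraries, and 0.07 ± 0.03 in nTregs, and the groups did not overlap in either. Without division by gene length it was -0.24 ± 0.08 in iTregs, also without overlap, and 0.06 ± 0.04 in nTregs, with overlap. The geometric mean gave -1.68 between the cell kinds in WT and -2.03 in the mutant.

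Taken pair by pair, the ratios moved unequally. Psmb8 over Psmb5 ran from 2.09 to 2.33 in WT nTregs and from 0.906 to 0.938 in WT iTregs, and from 2.05 to 2.31 and from 0.929 to 1.11 in the mutant. Psmb9 over Psmb6 was 0.995 ± 0.0785 (SD, n = 3) in WT nTregs and 0.348 ± 0.0229 in WT iTregs, and 1.19 ± 0.0744 and 0.362 ± 0.105 in the mutant. In nTregs all mutant libraries had a higher ratio than any WT library, by 0.26 ± 0.08 on the log2 scale. Psmb10 over Psmb7 was 1.02 ± 0.127 in WT nTregs and 0.209 ± 0.0316 in WT iTregs, and 0.972 ± 0.0640 and 0.107 ± 0.0118 in the mutant. In iTregs it was 0.245, 0.194 and 0.188 in WT libraries and 0.0990, 0.101 and 0.12 in mutant libraries, a log2 difference of -0.97 ± 0.15 without overlap. Psmb10 over Psmb7 was the 1 pair with a gap between genotypes in iTregs, where Psmb8 over Psmb5 differed by 0.11 ± 0.08 and Psmb9 over Psmb6 by 0.02 ± 0.24. No test was run on these ratios. Psmb10 and Psmb7 also differ in the GC content of their longest coding transcripts, at 56.5% and 48.7%. It is 55.8% and 56.6% for Psmb8 and Psmb5, and 55.3% and 55.8% for Psmb9 and Psmb6. The ratios were not formed with an adjustment for GC content. Its part in the gap for Psmb10 over Psmb7 was not tested.

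**Figure D3:**
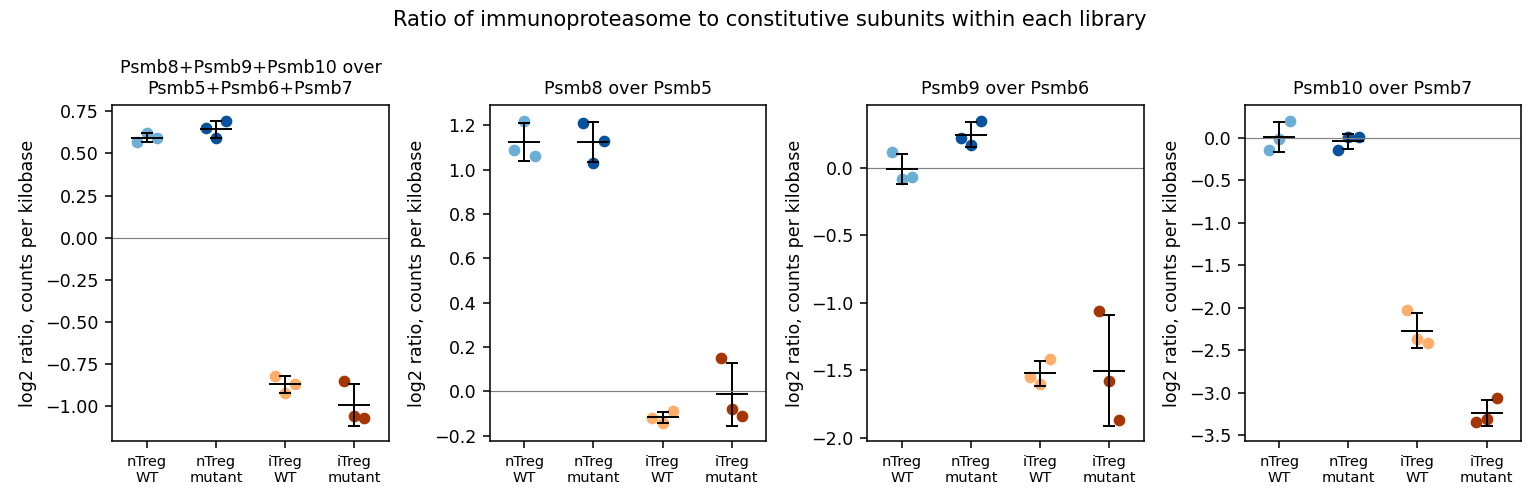
Log2 ratio of immunoproteasome to constitutive subunits (y axis, from counts per kilobase within a library) in the 3 libraries of each group (points), with mean and SD. The first panel sums 3 genes on each side and the others show single pairs. The iTreg libraries lie below the nTreg libraries in each panel, and mutant iTregs lie below WT iTregs for Psmb10 over Psmb7.

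In nTregs, 31 of the 41 members were higher in the mutant (19.3% of all tested genes were) and 0 were lower (15.6% of all genes were). At an unadjusted p below 0.05 edgeR also gave 0 lower members, and DESeq2 called 0 lower. The median log2 fold change was 0.38 over the members and 0.04 over all genes. In 35 members all 3 mutant libraries were above all 3 WT libraries (25.7% of all tested genes). The increase covered all parts of the particle: 6 of 7 alpha subunits, 3 of 3 constitutive and 3 of 3 immunoproteasome catalytic subunits, 3 of 4 other beta subunits, 3 of 6 ATPases, 2 of 3 base subunits, 7 of 8 lid subunits and 3 of 4 cap genes passed, but 1 of 3 base chaperones (Psmd9). The 10 that did not pass were Psma3, Psmb3, Psmc3, Psmc4, Psmc6, Psmd4, Psmd5, Psmd10, Psmd11 and Psme4, with log2 fold changes from -0.06 (Psmd5) to 0.28 (Psmb3).

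The size of this difference varied between the mutant libraries. Mutant nTreg library 1, the one with the high CD8 and NK cell marker sum, had the highest value of its group for 40 of the 41 members. Its median log2 ratio to the WT mean was 0.66, against 0.20 and 0.22 in mutant libraries 2 and 4. The summed CPM of the tested members was 4545 in that library, 3378 and 3497 in the other mutant libraries, and 2927 to 3007 in WT nTregs. Without it 30 members passed as higher (18.3% of all tested genes did), with a median of 0.25. The CD8 and NK cell marker sums of mutant libraries 2 and 4 were also above those of WT nTregs, as were the myeloid sums of all 3 mutant libraries, and 2 of 6 erythroid markers passed as higher. Of the CD8 and NK cell markers 8 of 10 passed as higher, and of the tested myeloid markers 1 of 7. The part of these markers in the difference was not tested. The count was also sensitive to the WT libraries: 20, 19 and 17 members passed without WT nTreg library 1, 2 or 3, and 18 with the 6 nTreg libraries fitted alone. The share of all tested genes that was higher fell too. It was 13.5%, 13.6% and 13.6% without those WT libraries, and 14.5% with the 6 nTreg libraries alone.

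**Figure D4:**
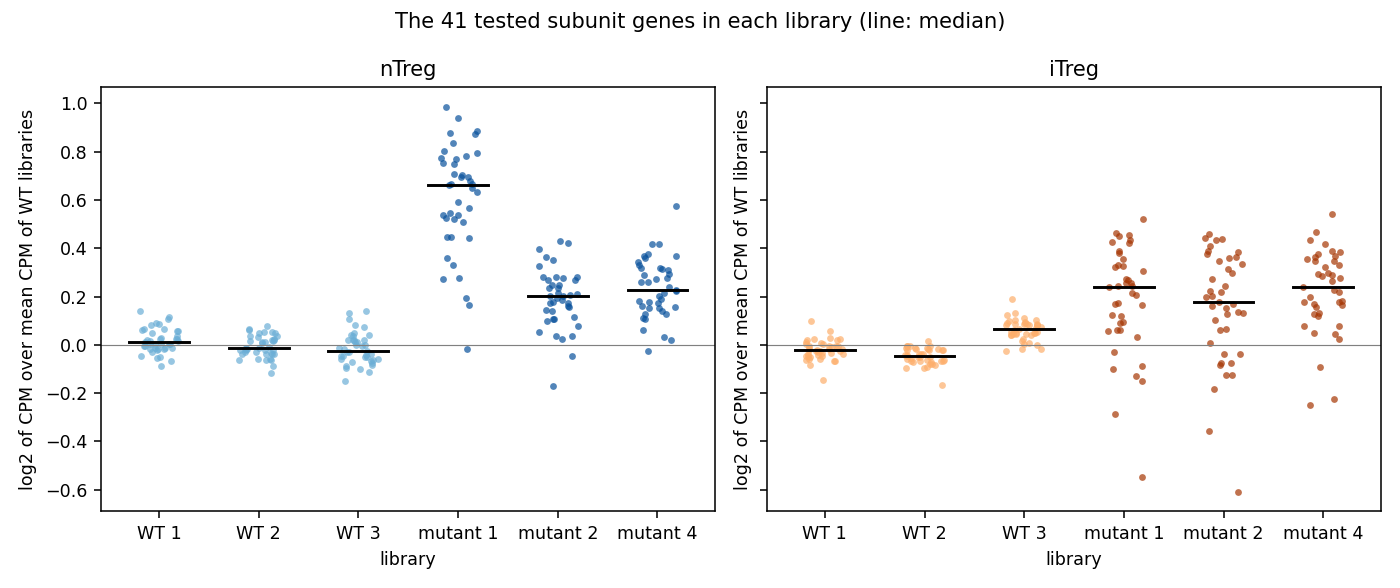
Each point is 1 of the 41 tested members, and its height is the log2 of its CPM over its mean CPM in the WT libraries of the same cell kind (y axis), for each library (x axis). Black lines are medians: 0.66, 0.20 and 0.22 in mutant nTreg libraries 1, 2 and 4, and 0.24, 0.18 and 0.24 in mutant iTreg libraries 1, 2 and 4.

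Psmd7 was at 48.5, 48.3 and 50.3 CPM in WT nTregs and 82.3, 59.6 and 62.2 CPM in mutant nTregs 1, 2 and 4 (log2 fold change 0.47 ± 0.10, edgeR adjusted p 0.00351). Psmd9 was at 8.11, 8.66 and 8.37 CPM against 13.3, 11.3 and 11.2 CPM (0.51 ± 0.11, edgeR adjusted p 0.0036). Psmb2, a non-catalytic beta subunit, was at 48.7, 42.2 and 41.5 CPM against 81.6, 56.3 and 59.0 CPM (0.57 ± 0.12, edgeR adjusted p 0.00388). Library 1 was the highest in each, and libraries 2 and 4 were also above all WT libraries.

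The catalytic subunits of both kinds rose to a similar degree in mutant nTregs. Psmb9 had the largest estimate of the 41 members, from 83.4, 75.0 and 81.0 CPM to 153, 107 and 119 CPM (0.66 ± 0.15, edgeR adjusted p 0.00538, and 0.53 without library 1). Psmb8 gave 0.48 ± 0.12 (0.33 without library 1) and Psmb10 gave 0.44 ± 0.13 (0.32 without it). Psmb5 rose by 0.47 ± 0.11, Psmb6 by 0.40 ± 0.12 and Psmb7 by 0.51 ± 0.14. The call of Psmb10 was lost without WT nTreg library 1 (edgeR adjusted p 0.072) or 2 (0.0669), that of Psmb6 without library 1 (0.0731) or 2 (0.0625), and that of Psmb7 without library 3 (0.0519). Psme1 rose by 0.33 ± 0.08, and Psme2 by 0.34 ± 0.11, a call that was lost without mutant library 1 (0.20, edgeR adjusted p 0.056) without each WT nTreg library and without WT iTreg library 1.

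In iTregs fewer members passed between genotypes. There 13 were higher in the mutant (14.0% of all tested genes were) and 1, Psmb10, was lower (11.4% of all genes were). The median log2 fold change was 0.22 over the members and 0.04 over all genes, and in 30 members all 3 mutant libraries were above all 3 WT libraries (26.8% of all tested genes). The 13 were Psma1, Psma2, Psma3 and Psma4 of the alpha ring, Psmb7 of the catalytic subunits, the ATPases Psmc1, Psmc2 and Psmc6, the lid subunits Psmd6, Psmd7, Psmd12 and Psmd14, and the chaperone Psmd10. No non-catalytic beta subunit, base subunit or cap gene passed. The myeloid marker sum was lower, and the CD8 and NK cell marker sum higher (58.9 to 89.1 against 37.8 to 56.8 CPM), in every mutant than in any WT iTreg library. The single markers were mixed. Of 10 CD8 and NK cell markers 0 passed, with 5 estimates above 0 and 3 below. Of 7 tested myeloid markers 1 passed as lower and 0 as higher, with 4 estimates above 0 and 3 below. The part of these markers in the difference was not tested. The count of 13 higher members rested on few libraries. It was 1 without WT iTreg library 1, 2 without WT iTreg library 2, and 3, 5 and 8 without mutant iTreg library 1, 2 or 4. It was 22 without mutant nTreg library 1, which enters this comparison only through the shared spread, the gene filter and the scaling. The share of all tested genes that was higher moved too: it was 4.19% and 5.12% without WT iTreg library 1 or 2, 6.32%, 8.01% and 11.9% without mutant iTreg library 1, 2 or 4, and 17.2% without mutant nTreg library 1. Without WT iTreg library 1 or 2 or mutant iTreg library 1 the share of members was therefore near or below that of all genes. The count was 20, with 2 lower, with the 6 iTreg libraries alone (17.8% higher and 17.4% lower of all tested genes). It was 7, with 2 lower, with library size alone in place of TMM (8.93% higher and 16.2% lower of all tested genes).

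Psmd6 passed under every alternative that was run, the 1 member of the 13 to do so. It was at 72.7, 69.9 and 77.6 CPM in WT iTregs and 99.2, 101 and 94.5 CPM in mutant iTregs (0.42 ± 0.09, edgeR adjusted p 0.00619). Psmc6 was at 116, 120 and 129 CPM against 163, 165 and 157 CPM (0.41 ± 0.09, edgeR adjusted p 0.00812). Psma4 was at 128, 126 and 139 CPM against 176, 178 and 181 CPM (0.44 ± 0.11, edgeR adjusted p 0.0122). Psmb7 was at 94.4, 100 and 119 CPM against 150, 141 and 152 CPM (0.50 ± 0.13, edgeR adjusted p 0.0189). In all of these the groups were apart.

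Psmb10 went down in mutant iTregs, from 11.6, 9.65 and 11.2 CPM to 7.41, 7.09 and 9.11 CPM, without overlap (-0.45 ± 0.14, edgeR adjusted p 0.0305). The call was lost without WT iTreg library 1 (0.113) or 3 (0.0706) and without mutant iTreg library 1 (0.104) or 2 (0.106), all edgeR adjusted p-values. Psmb8 (0.09 ± 0.12), Psmb9 (-0.00 ± 0.15), Psmb5 (-0.02 ± 0.11) and Psmb6 (-0.04 ± 0.12) did not pass, and their groups overlapped. For Psmb9, mutant iTreg library 1 at 50.2 CPM was above, and libraries 2 and 4 at 35.2 and 34.2 CPM below, the WT libraries at 37.4 to 43.2 CPM. Psme2 had 0.28 ± 0.11 and Psme1 0.06 ± 0.08, and neither passed.

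Of the 41 members, 10 rose in the mutant in both cell kinds (5.80% of all tested genes did). They are 32.3% of the 31 in nTregs and 76.9% of the 13 in iTregs, where over all genes the shared ones are 30% and 41.4%. The 10 are Psma1, Psma2, Psma4, Psmb7, Psmc1, Psmc2, Psmd6, Psmd7, Psmd12 and Psmd14. Another 7 passed in neither (Psmb3, Psmc3, Psmc4, Psmd4, Psmd5, Psmd11 and Psme4). The difference of the mutant effects, iTreg minus nTreg, was tested as an interaction term. It passed as lower for 3 members (7.18% of all tested genes) and as higher for 0 (6.12% of all genes), so the share of members was close to the background. At an unadjusted p below 0.05 edgeR gave 0 higher members too, and DESeq2 called 0 higher. Psmb10 had the largest difference, -0.89 ± 0.19 (edgeR adjusted p 0.0109), with an increase in nTregs and a decrease in iTregs. Psmd3, a lid subunit, was at 46.3, 46.0 and 51.6 CPM in WT nTregs, 75.2, 63.2 and 56.6 CPM in mutant nTregs, 71.0, 72.7 and 72.0 CPM in WT iTregs, and 59.0, 56.1 and 67.4 CPM in mutant iTregs. Its genotype effect was 0.44 ± 0.10 in nTregs and -0.24 ± 0.10, not passed, in iTregs, and these differed by -0.68 ± 0.14 (edgeR adjusted p 0.0106). Psmd9, at 13.7, 12.8 and 13.0 CPM in WT iTregs and 12.3, 12.5 and 15.1 CPM in mutant iTregs, had a difference of -0.50 ± 0.15 (edgeR adjusted p 0.0455) that did not pass under most alternatives that left a library out. Psmb9 (-0.66 ± 0.21, edgeR adjusted p 0.0575) and Psmb5 (-0.48 ± 0.16, edgeR adjusted p 0.061) missed the threshold, and both passed without mutant nTreg library 1, which made 5 members in all. Without that library 11.7% of all tested genes passed as lower, so the share of members was again close to the background.

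The GC content of the transcripts moved with the genotype difference in iTregs. Over the 41 members, GC content and log2 fold change had a Spearman correlation of -0.77 in iTregs and 0.16 in nTregs, and over 17886 tested genes with a transcript sequence the values were -0.35 and 0.09. For the difference of the mutant effects they were -0.81 over the members and -0.37 over the genes. These correlations describe genes measured in the same libraries, which are not independent replicates. The 13 members that rose in mutant iTregs had a median GC content of 45.0%, none above 49.7%, and the 27 that did not pass had a median of 52.6%. Psmb10, at 56.5%, and Psmd3, at 58.3%, were among the members richest in GC. With each library's trend on GC content taken into the fit, an alternative chosen after seeing the data, 10 members were higher and 0 lower in mutant iTregs. Of all tested genes 12% were higher and 7.14% lower in mutant iTregs with that term. Psmb10 then stood at -0.24 (edgeR adjusted p 0.184). Of the 13 members, 7 were among the 10 that were higher with that term. Psma1, Psma2, Psma3, Psmc2, Psmd10 and Psmd14 lost their call, and Psmb4, Psmd8 and Psme2 gained one. The difference between cell kinds remained past the threshold for Psmb10 (-0.62, edgeR adjusted p 0.0446), and not for Psmd3 (-0.33, 0.125) or Psmd9 (-0.40, 0.0877). The lower level of Psmb8, Psmb9 and Psmb10 in WT iTregs was as large with that term (-0.72, -1.07 and -1.48).

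**Figure D5:**
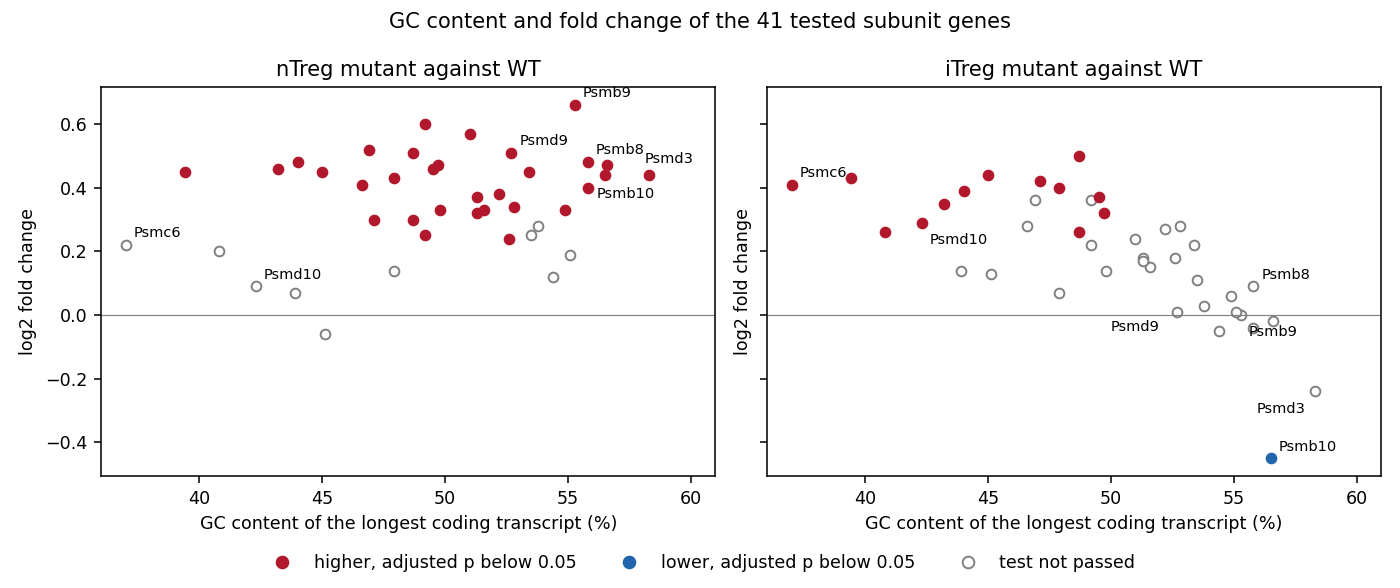
GC content of each member's longest coding transcript (x axis, percent) and its log2 fold change between mutant and WT (y axis), in nTregs (left) and iTregs (right). Red points passed as higher, the blue point passed as lower and open points did not pass. In iTregs the estimates are lower where GC content is higher, with Psmb10 and Psmd3 at the bottom right.

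Genes that work with the particle were read from lists chosen by function. In WT iTregs against WT nTregs 33.7% of all tested genes were higher and 35.7% lower. Between genotypes 19.3% of all tested genes were higher and 15.6% lower in mutant nTregs, and 14.0% and 11.4% in mutant iTregs. Of 7 genes for core assembly and inhibition, 6 were higher and 1 lower in WT iTregs than in WT nTregs, 5 were higher in mutant nTregs and 3 in mutant iTregs. Psmg1 and Psmg2, which pair to assemble the alpha ring, rose in WT iTregs by 0.86 ± 0.08 and 0.88 ± 0.08. Pomp, the chaperone of beta ring maturation, rose in mutant nTregs (0.46 ± 0.14) and mutant iTregs (0.40 ± 0.14, edgeR adjusted p 0.0491). Akirin2, which carries proteasomes into the nucleus, rose in mutant iTregs (0.32 ± 0.08) and not in mutant nTregs (-0.17 ± 0.08, not passed), a difference of 0.50 ± 0.11 (edgeR adjusted p 0.013). Among 8 other parts of the particle, 4 were higher in mutant nTregs and 5 in mutant iTregs, with Uchl5 (0.62 ± 0.15 and 0.55 ± 0.15) and Usp14 (0.44 ± 0.12 and 0.49 ± 0.12), both deubiquitinases bound to the regulatory particle, among them. Of 13 genes for ubiquitin supply and shuttling, 3 were higher (23.1%) and 1 lower (7.69%) in mutant nTregs. In mutant iTregs 3 were higher (23.1%) and 4 lower (30.8%). Of 9 regulators of proteasome transcription, 0 were higher and 2 lower (22.2%) in mutant nTregs. Nfe2l1, the factor that raises proteasome genes when degradation is blocked, passed in none of the 5 comparisons, with 0.10 ± 0.10 in nTregs and -0.25 ± 0.10 in iTregs.

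Genes of MHC class I peptide loading and of interferon signalling were lower in iTregs together with the immunoproteasome subunits. Of 12 MHC class I genes, 9 were lower and 1 higher in WT iTregs than in WT nTregs, with a median of -0.93. The counts were the same in the mutant, with a median of -1.32. Over all tested genes 35.7% were lower and 33.7% higher in WT, and 35.0% and 33.2% in the mutant. Tap1, which shares its start region with Psmb9, had -1.19 ± 0.10 in WT and -1.71 ± 0.11 in the mutant. Tap2, its partner in the transporter, had -0.72 ± 0.10 and -1.43 ± 0.10. H2-K1, a class I heavy chain, had -1.73 ± 0.07, and Nlrc5, the transactivator of class I genes, had -1.56 ± 0.13 in WT. Of 20 interferon genes, 16 were lower and 3 higher in WT iTregs, with a median of -1.19. Irf1 (-1.77 ± 0.16), a transcription factor induced by interferon gamma, was among the lower ones.

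The same lists were read between genotypes, where fewer of all tested genes passed as well, with the shares given above. In mutant nTregs 3 of 12 MHC class I genes were higher and 0 lower, among them Tap1 (0.37 ± 0.10) and Tap2 (0.33 ± 0.10). In mutant iTregs 2 were higher and 3 lower, with Tap2 at -0.39 ± 0.10 and H2-K1 at -0.44 ± 0.07, and Tap1 at -0.15 ± 0.10, not passed. The mutant effect on Tap1 differed between iTregs and nTregs by -0.52 ± 0.15 (edgeR adjusted p 0.0362) and that on Tap2 by -0.71 ± 0.14 (0.00883). Of 20 interferon genes, 4 were higher and 5 lower in mutant nTregs, and 3 were higher and 3 lower in mutant iTregs, where 19.3% and 15.6% of all tested genes passed as higher and lower in nTregs and 14.0% and 11.4% in iTregs. Irf1 was lower in mutant iTregs (-0.46 ± 0.16, edgeR adjusted p 0.0469) and did not pass in mutant nTregs (0.19 ± 0.15).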

How the data were processed

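Stranded mRNA libraries were sequenced from 4 groups of 3. The deposited values are raw counts per gene; per the file headers they were made with featureCounts 1.5.2 on Ensembl release 87 (GRCm38), counting on the reverse strand, with reads that map to several places counted at each. The submitters' processing notes name bcl2fastq 2.18.0.12, STAR 2.5.2b and mm10. Symbols were matched for 49412 of 49671 genes with GENCODE M21.

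Genes were filtered with filterByExpr, scaled with TMM and tested with edgeR 4.0.16 (R 4.3.3), whose quasi-likelihood fit held 4 group means over all 12 libraries (8 residual degrees of freedom). P-values are two-sided and adjusted by Benjamini-Hochberg over 17977 genes, with a threshold of 0.05. CPM uses TMM-scaled library sizes, and CPM per kb divides by the exon length in the deposited tables. The method was tested on simulated data with larger changes than most reported here, and without an outlying library or a GC trend. That test does not show how well small changes are found in these libraries. Replicates differed by more than sampling noise (chi-square per degree of freedom from 4.48 to 51.5), so none was counted as a duplicate.

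Alternatives were RLE scaling, library size alone, every gene kept, a minimum of 1 CPM in 3 libraries, the compared libraries alone, DESeq2 1.42.0, the replicate number as a block, leaving out each library, and, added after seeing the data, a GC content offset. The members and lists were chosen with earlier results of these data known. Values in every library are given for the catalytic subunits, Psme1, Psme2 and the 3 members with the smallest adjusted p per direction. Of other lists, up to 3 genes per comparison with the smallest adjusted p, Tap1, Tap2, Nlrc5, Irf1 and Nfe2l1 could be named; some genes of these lists are not reported here. Psme2b, Psmc3ip and pseudogenes were left out by the naming rule.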

Additional observations from a re-analysis of the deposited data

Results flagged for a closer look

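For 3 members the effect of the mutation differed between iTregs and nTregs in the test of the difference itself (iTreg minus nTreg, log2 scale). All 3 passed as lower, as did 7.18% of all tested genes, so the share of members was close to the background. Psmb10 had -0.89, Psmd3 had -0.68 and Psmd9 had -0.50. All 3 had risen in mutant nTregs, and in mutant iTregs Psmb10 fell while Psmd3 and Psmd9 did not pass. With the GC content offset the differences were -0.62, -0.33 and -0.40, and Psmb10 alone passed. Of all tested genes 3.54% passed as lower with that offset.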

How the results depend on the processing

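No member's call changed direction under any alternative. Called in every alternative were 14 of 31 members in mutant nTregs, 1 of 13 higher and 0 of 1 lower in mutant iTregs, 1 of 3 for the difference of effects (Psmb10), 29 of 31 higher and 4 of 5 lower in WT iTregs against nTregs, and 14 of 24 higher and 5 of 5 lower in the mutant. Leaving out each library gave 17 to 34 members higher in mutant nTregs, 1 to 22 higher and 0 to 2 lower in mutant iTregs, and 2 to 5 lower for the difference. The shares of all tested genes were 13.5% to 19.6%, 4.19% to 17.2%, 5.41% to 16.8% and 3.32% to 11.7%, in that order. With the compared libraries alone, 18 rose in mutant nTregs, and 20 rose and 2 fell in mutant iTregs. Of all tested genes 14.5% rose in mutant nTregs in that setting, and 17.8% rose and 17.4% fell in mutant iTregs. The filter of 1 CPM and DESeq2 each gave 2 lower members in mutant iTregs, and for the difference 5 and 6, against 5 with RLE scaling. Of all tested genes 16.3% and 12.8% were lower in mutant iTregs, and 11.1%, 9.54% and 7.57% for the difference, in the same order. With the GC content offset 0 members were lower in mutant iTregs, 1 for the difference, and the WT median was 0.44. Of all tested genes 7.14% were lower in mutant iTregs with that offset and 3.54% for the difference. Library size alone gave 7 higher and 2 lower with a median of 0.13 in mutant iTregs, 9 lower with a median of -0.27 for the difference (where it moved the median of all genes by -0.14), 0.44 for the WT median, and 14 higher, 9 lower and 0.11 for mutant iTregs against nTregs. With it 8.93% of all tested genes were higher and 16.2% lower in mutant iTregs, and 13.3% were lower for the difference. For mutant iTregs against nTregs these shares were 24.5% higher and 43.6% lower. The log2 ratio of immunoproteasome to constitutive subunits changed by -0.28, -1.68 and -2.03 with a geometric mean, and by -0.24, -1.51 and -1.80 without division by length, for mutant iTregs, WT iTregs against nTregs and the mutant. Except where fewer libraries enter, the cause was not tested. Same-numbered libraries did not deviate together over all genes (correlations from -0.06 to 0.05), so the numbers were not treated as pairs. That cannot exclude that same-numbered libraries came from the same animal, which the labels do not say. With the replicate block 27 members rose in mutant nTregs, and 8 rose and 0 fell in mutant iTregs. Of all tested genes 16.2% rose in mutant nTregs with that block, and 9.33% rose and 7.56% fell in mutant iTregs. The low members Psma8 and Psmb11 did not pass the gene filter and were not tested in the main fit.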
